A study of Mus musculus with 78 samples.

Results

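The genes described here are 7 that code for subunits of an ion pump, for water channels and for an ion exchanger. They were grouped under the blastocoel, the fluid-filled cavity of the blastocyst, and a role of each there was not tested. They are the Na/K-ATPase beta subunits Atp1b1 and Atp1b3, the water channels Aqp3, Aqp8, Aqp9 and Aqp11, and the sodium/proton exchanger Slc9a3. They were chosen by name, and their rows were taken by Entrez identifier from the gene tables of 4-cell and 8-cell mouse embryos. Of the 7, the table of 4-cell blastomeres listed 6 and that of 8-cell blastomeres listed 5, among 15218 and 15342 genes. Aqp8 was listed in neither table and Slc9a3 only in the 4-cell table. A gene without a row has no value here, and no level is stated for it.

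Each column of the tables is 1 blastomere, sequenced on its own as a Smart-seq2 library, a method that copies whole polyadenylated transcripts and does not mark their strand. There were 24 blastomeres in the 4-cell table and 26 in the 8-cell table. All came from embryos that carried 1 copy of the Brainbow2.1 cassette at the Rosa26 locus and 1 copy of a Cre recombinase under the ubiquitous CAG promoter that 4-hydroxytamoxifen activates. The 2-cell embryos were collected 46 hours after hormone injection, exposed to 4-hydroxytamoxifen for 2 hours and grown in KSOM medium, so both stages share the transgenes and the drug, and no untreated embryo is among them. The sample labels name 36 blastomeres of 9 4-cell embryos and 31 of 4 8-cell embryos. Some have a lineage, A or B, for the 2-cell blastomere they descend from. At the 4-cell stage these are 12 of A and 12 of B, from 6 embryos. At the 8-cell stage they are 13 of each, from 4 embryos. Their totals equal the numbers of columns, and the paper limited its analyses to 50 blastomeres with a resolved lineage. Even so, no column name points to a labelled blastomere. Each stage therefore counts as 1 sample here, its blastomeres are cells rather than replicates, and no difference between the stages has a test or a p-value.

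In the mouse, the cavity forms after compaction, when the outer cells have become an epithelium, the trophectoderm. Na/K-ATPase, a pair of a catalytic alpha subunit and a beta subunit that brings it to the membrane, drives sodium out of these cells on the cavity side, and water follows through aquaporins. Sodium enters at the outer side, in part through sodium/proton exchangers. Aqp3 and Aqp9 also pass glycerol and other small solutes, Aqp8 is a water channel of several epithelia, and Aqp11 is a distant relative found in membranes of the endoplasmic reticulum. The blastomeres studied here are from before the cavity exists.

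The sequences just upstream of the start sites are shown for the 5 genes listed in both tables, so that the promoters of the abundant and the scarce beta subunit and of the water channels can be read beside their levels. They are from RefSeq on GRCm38.p6, cover 100 bases before the start site, are written 5′ to 3′ on the strand of the gene, and carry searched motifs in capitals. All of these genes lie on the minus strand. The windows are chr9:96364432-96364531 for Atp1b3, chr1:164458356-164458455 for Atp1b1, chr7:97738248-97738347 for Aqp11, chr9:71163290-71163389 for Aqp9 and chr4:41098184-41098283 for Aqp3.
Atp1b3: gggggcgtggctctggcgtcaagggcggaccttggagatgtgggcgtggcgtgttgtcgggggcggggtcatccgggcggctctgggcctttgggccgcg
Atp1b1: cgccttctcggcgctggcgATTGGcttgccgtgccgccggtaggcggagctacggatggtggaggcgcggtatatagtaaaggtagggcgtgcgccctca
Aqp11: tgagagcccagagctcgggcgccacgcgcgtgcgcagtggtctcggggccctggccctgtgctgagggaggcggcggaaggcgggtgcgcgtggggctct
Aqp9: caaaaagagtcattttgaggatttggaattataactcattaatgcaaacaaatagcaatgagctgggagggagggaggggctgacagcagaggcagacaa
Aqp3: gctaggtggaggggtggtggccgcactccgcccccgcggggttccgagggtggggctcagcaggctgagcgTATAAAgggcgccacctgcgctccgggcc

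Both strands were searched for TATAAA, for CCAAT, for GGAATG, the core letters that TEAD factors bind, and for GCCNNNGGC, the letters that AP-2 factors bind. The Aqp3 window held TATAAA, starting 29 bases before the start site, a match found in 5.56% of the windows of the same length at 32851 start sites. The Atp1b1 window held CCAAT on the other strand, read as ATTGG from 81 bases before the start site, a match found in 18.9% of windows. None of the 5 windows held the TEAD or AP-2 letters in the forms searched, which were in 4.71% and 6.78% of windows. These are matches of letters in a short window and say nothing of binding. By base composition the Aqp9 window stood apart, with 43% G and C and no CG dinucleotide, against 66% to 76% and 9 to 13 CG dinucleotides in the other 4. The median window had 55% and 3. Of the 2 start sites that the sequence table gives for Atp1b3 and for Aqp9, the one farthest upstream is shown. The Aqp9 window lies inside the annotated gene, which runs from 71110659 to 71167849 on chromosome 9.

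Levels are given as FPKM, fragments per kilobase of transcript, scaled to the fragments of the library, which allows genes of different length to be set side by side within a blastomere. A gene above 1 FPKM is called expressed, the threshold of the methods of the study. The fragments behind the values were estimated from the lowest FPKM values, which are whole multiples of what 1 fragment is worth. They numbered 6.87 M to 16.9 M (M stands for mega) per 4-cell blastomere and 2.34 M to 21.8 M per 8-cell blastomere, with medians of 13.4 M and 17.2 M. The 8-cell blastomere with 2.34 M, called shallow here, stood apart, as the next lowest had 12.6 M. The paper left out 1 8-cell blastomere at quality control, because its uniquely aligned pairs came to under 3 M. The 2.34 M of the shallow blastomere is under that number too, though it is an estimate from FPKM and not a count of pairs. The shallow blastomere was kept in all values unless stated otherwise. The number of expressed genes per blastomere was 3009 to 8276 in the 4-cell table and 3548 to 8078 in the 8-cell table. Blastomeres with fewer than 0.75 of the median number of their stage, 4 at the 4-cell stage and 3 at the 8-cell stage, are called gene-poor. Several results, though not all, are also given without them. All 12 oocyte and cleavage-stage markers were listed in both tables, and the middle of their medians was 28.9 and 44.5 FPKM. Dppa3 was the highest, at medians of 3658 and 3260 FPKM. Some were low, as Bmp15 had medians of 0.164 and 0 FPKM and Ooep 0.645 and 0. In 8-cell blastomeres Gdf9 also had a median of 0 and Nlrp5 one of 0.122 FPKM. No blood marker of 3 was listed. Of 10 cumulus cell markers 5 and 4 were listed, with summed levels of 9.03 to 104 and 7.84 to 111 FPKM. Amhr2 was above 1 FPKM in every blastomere, from 9.03 and 3.65 FPKM up. The other listed cumulus markers together were above 1 FPKM in 4 of 24 and 3 of 26 blastomeres and reached 3.06 and 9.51 FPKM, the latter from Star. Fshr was not listed, and Has2 was at most 0.0279 FPKM. Of the 4 oviduct markers, Epcam had medians of 28.9 and 9.92 FPKM and Ovgp1 was above 1 FPKM in 3 blastomeres of each stage. Pax8 was above 1 FPKM in 1 4-cell blastomere and reached at most 0.0212 FPKM at the 8-cell stage. Foxj1 reached at most 0.0291 FPKM at the 4-cell stage and was not listed at the 8-cell stage. The part of such cells in the results was not tested.

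Among the pump subunits, Atp1b3 was by far the most abundant. At the 4-cell stage it ran from 79.3 FPKM through a median of 252 to 579, and all 24 blastomeres expressed it. In 8-cell blastomeres it ran from 0 through a median of 104 to 234, and 25 of 26 blastomeres expressed it. The lone 0 belonged to the shallow blastomere, and the value nearest to it was 40.6 FPKM. The groups overlapped, but 13 of the 24 4-cell blastomeres lay above the highest 8-cell value, and none of the 26 8-cell blastomeres reached the 4-cell median. Its 4-cell median exceeded that of 97.6% of the listed genes and its 8-cell median that of 94.1%.

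The mean of log2(FPKM + 1) for Atp1b3 was 7.89 at the 4-cell stage and 6.51 in 8-cell blastomeres, a difference of -1.38, or 2.61-fold on that scale. In 84.6% of all pairs of a 4-cell and an 8-cell blastomere, the 4-cell value was the higher. Without the shallow 8-cell blastomere the difference was -1.12, and without the gene-poor blastomeres of both stages it was -1.08. FPKM is a share of a library, so these values do not give the transcripts per cell. At the 8-cell median level, Atp1b3 would have had about 584 fragments in the shallow blastomere, whereas a count of 0 allows up to 3 fragments, or 0.534 FPKM. That blastomere also listed Aqp11 and Atp1b1 at 0, while Aqp3 was at 4.13 and Aqp9 at 1.24 FPKM, and Dppa3 at 10167 FPKM was the highest of any 8-cell blastomere.

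Atp1b1, the other beta subunit among the members, was low, and above 1 FPKM in a minority of all blastomeres of each stage. At the 4-cell stage it ran from 0 through a median of 0.279 to 30.1 FPKM, with 11 blastomeres at 0 and 10 above 1. The second highest value was 7.98 FPKM, so the top blastomere stood well above the rest. Among 8-cell blastomeres it ran from 0 through a median of 0 to 19.4 FPKM, with 18 blastomeres at 0 and 6 above 1. The ranges overlapped, and 1 4-cell blastomere lay above the highest 8-cell value. Atp1b1 was expressed in 41.7% of 4-cell blastomeres (exact Clopper-Pearson 95% interval 22.1% to 63.4%) and in 23.1% of 8-cell blastomeres (8.97% to 43.6%). These intervals cover the counting of blastomeres only. A count of 0 allowed up to 0.0532 to 0.496 FPKM of Atp1b1 in an 8-cell blastomere and up to 0.0687 to 0.169 FPKM in a 4-cell one, below the threshold of 1 in each. Atp1b1 shares 202 exon bases with Nme7 on the opposite strand, and reads from these bases cannot be told apart without strand.

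Within blastomeres Atp1b3 was the higher of the pair wherever either was detected. It exceeded Atp1b1 in 24 of 24 4-cell blastomeres and in 25 of 26 8-cell ones, with both at 0 in the remaining one. The median log2 ratio of Atp1b1 to Atp1b3, each plus 1 FPKM, was -6.62 in 4-cell and -6.48 in 8-cell blastomeres. These medians are set mostly by blastomeres where Atp1b1 was near 0. In the 10 4-cell and 6 8-cell blastomeres with both genes expressed, the medians were -5.59 and -4.44. Atp1b3 made up 79.3% to 100% of the summed FPKM of Atp1b1, Atp1b2 and Atp1b3 at the 4-cell stage, with a median of 97.1%, and 88.7% to 100% at the 8-cell stage, with a median of 98.1%.

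**Figure D1:**
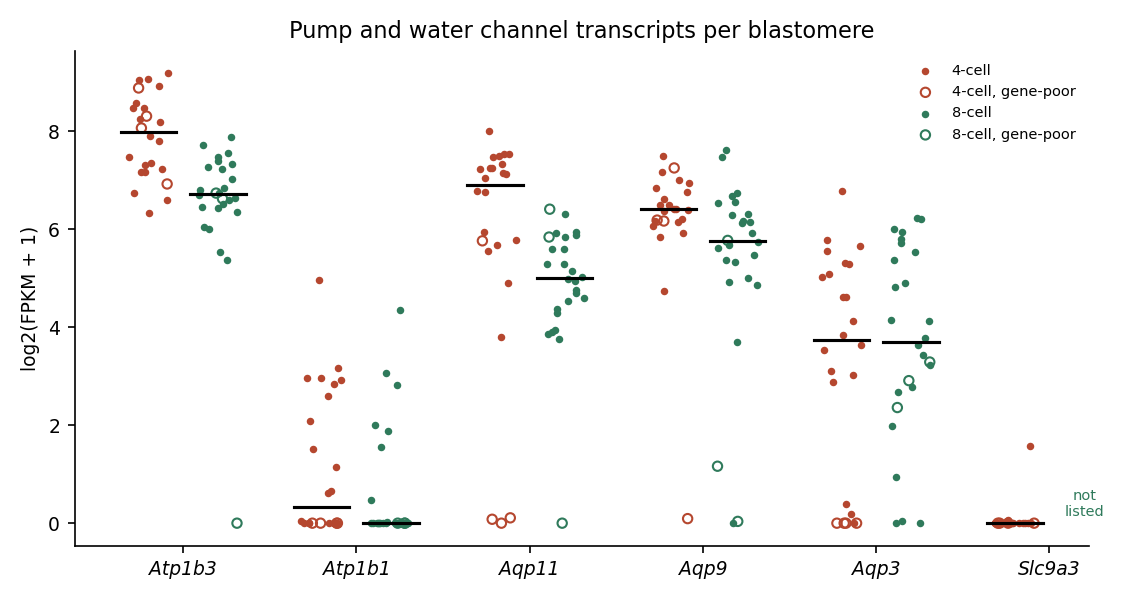
Level of each listed gene in each blastomere, as log2(FPKM + 1), with 4-cell blastomeres in red, 8-cell blastomeres in green, gene-poor blastomeres as open circles and the stage median as a black bar. Atp1b3 medians are 252 and 104 FPKM, Aqp11 medians 120 and 31.3 FPKM, and most Atp1b1 and Slc9a3 values lie at 0.

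Among the water channels, Aqp11 had the highest median at the 4-cell stage. It ran from 0 through a median of 120 to 255 FPKM, and 21 of 24 blastomeres expressed it. The 3 that did not were gene-poor and had at most 0.0783 FPKM. Its 8-cell values ran from 0 through a median of 31.3 to 83.9 FPKM, and 25 of 26 blastomeres expressed it, all but the shallow one. In that one the median level would have given about 96.6 fragments, and a count of 0 allows up to 0.971 FPKM. Of the 4-cell blastomeres 14 lay above the highest 8-cell value, and no 8-cell blastomere exceeded the 4-cell median.

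The stage difference of Aqp11 depended on the blastomeres near 0. The ratio of the medians was 3.83, whereas the difference of the means of log2(FPKM + 1), 5.81 and 4.87, was -0.94. Without the gene-poor blastomeres this difference was -1.70, which moved it by over 1.5 times and past 2-fold. Leaving out a lone blastomere was also enough to pass -1. This held for each of the gene-poor 4-cell blastomeres with 3009, 3699 and 5336 expressed genes, with a difference of -1.19 each. It also held for the 4-cell blastomere with 12.8 FPKM, at -1.03, and narrowly for the 8-cell blastomere with 83.9 FPKM. Leaving out the shallow 8-cell blastomere shrank the difference to -0.74.

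Aqp9 was expressed in nearly every blastomere of both stages. At the 4-cell stage it ran from 0.0665 through a median of 83.6 to 179 FPKM, and 23 of 24 blastomeres were above 1. In the 8-cell table it ran from 0 through a median of 52.9 to 196 FPKM, and 24 of 26 were above 1. The groups overlapped widely, since the highest value of all was an 8-cell one, and 6 8-cell blastomeres exceeded the 4-cell median. The difference of the mean log2 levels, 6.17 and 5.28, was -0.89. It was -1.16 without the 4-cell blastomere with 3009 expressed genes and 0.0665 FPKM, and -1.16 without the 5 8-cell columns that have NA in place of a name. Without the shallow 8-cell blastomere it was -0.73, and without the gene-poor blastomeres of both stages it was -0.76. The 5 columns named NA had an Aqp9 median of 93.3 FPKM against 52.3 in the other 21 8-cell blastomeres. A noncoding gene, Gm32714, overlaps Aqp9 on the opposite strand and shares none of its curated exon bases.

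Aqp3, an aquaglyceroporin of the basolateral membrane of the later trophectoderm, was uneven between blastomeres. At the 4-cell stage it ran from 0 through a median of 12.4 to 108 FPKM, with 5 blastomeres at 0 and 17 above 1. At the 8-cell stage it ran from 0 through a median of 12.04 to 74.1 FPKM, with 2 blastomeres at 0 and 22 above 1. Its levels at the stages overlapped throughout, as 12 of 24 4-cell blastomeres exceeded the 8-cell median and 13 of 26 8-cell blastomeres exceeded the 4-cell median. The difference of the mean log2 levels, 3.27 and 3.69, was 0.42, but it was -0.04 as a difference of medians and -0.13 without the gene-poor blastomeres, so it has no stable direction. The share of expressing blastomeres was 70.8% (48.9% to 87.4%) and 84.6% (65.1% to 95.6%), with intervals that overlap but cover the counting of blastomeres only. Without the gene-poor blastomeres it was 85.0% and 82.6%, so the order of the stages turned. The 5 8-cell columns named NA had a median of 51.3 FPKM and the other 21 a median of 11.4. The SD of log2(FPKM + 1) over blastomeres was 2.29 and 1.97, above that of 97.9% and 92.0% of listed genes. Aqp11 had a higher SD at the 4-cell stage, 2.43, and Aqp9 had one of 1.98 at the 8-cell stage. The middle 50% of Aqp3 values spanned 4.80 and 2.796, wider than for these and the other members listed in both tables.

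Slc9a3, which exchanges sodium for protons at the apical membrane of epithelia, was above 0 in only 2 of the 24 4-cell blastomeres, at 0.0515 and 1.996 FPKM. The other 22 were at 0. The blastomere with 1.996 FPKM was the 4-cell one with the fewest fragments, 6.87 M, and it also had the highest Atp1b1 level, 30.1 FPKM. It had 7131 expressed genes and was not gene-poor. The fragments behind these Slc9a3 values are not given, because the exon length that fits the other members does not give whole fragments here. A noncoding gene, Gm41003, overlaps Slc9a3 on the same strand without sharing curated exon bases.

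**Figure D2:**
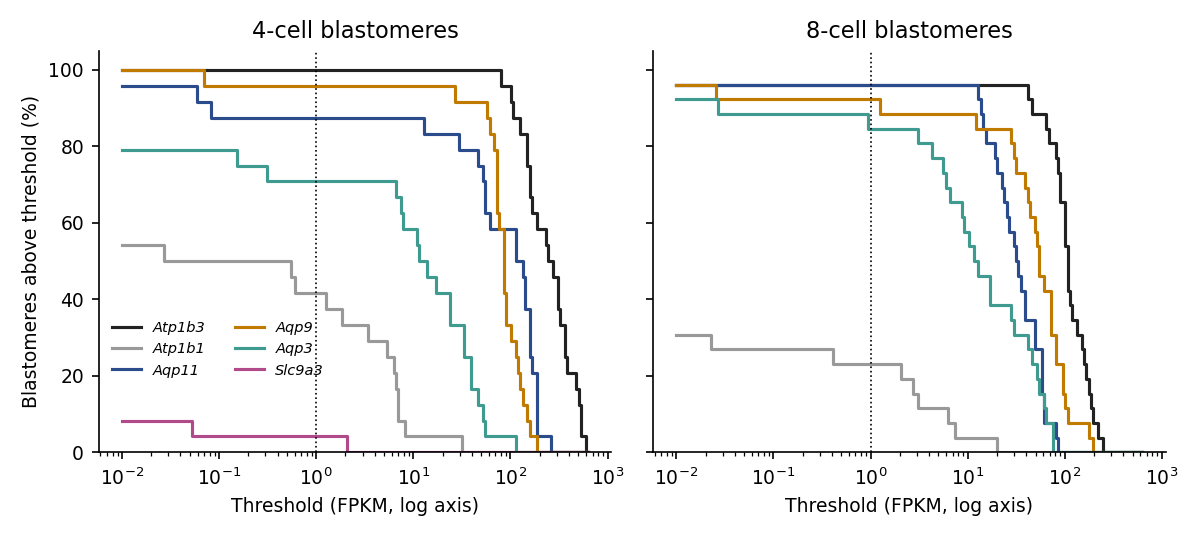
Percentage of blastomeres above each FPKM threshold (log axis) at the 4-cell stage (left, 24 blastomeres) and the 8-cell stage (right, 26 blastomeres), with the 1 FPKM threshold dotted. The curves of Atp1b3, Aqp9 and Aqp11 stay nearly flat up to about 10 FPKM, while those of Aqp3 and Atp1b1 start lower, and Slc9a3 appears only on the left.

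The share of expressing blastomeres was lowest for Slc9a3 and Atp1b1. At the 4-cell stage Atp1b3 was expressed in 100% of blastomeres, Aqp9 in 95.8%, Aqp11 in 87.5%, Aqp3 in 70.8%, Atp1b1 in 41.7% and Slc9a3 in 4.17%. At the 8-cell stage Atp1b3 and Aqp11 were expressed in 96.2%, Aqp9 in 92.3%, Aqp3 in 84.6% and Atp1b1 in 23.1%. The median listed gene was expressed in 37.5% of 4-cell and 30.8% of 8-cell blastomeres. The intervals of Atp1b3, Aqp9 and Aqp11 overlapped at both stages, as did those of Aqp11 and Aqp3. Those of Aqp3 and Atp1b1 overlapped at the 4-cell stage, at 48.9% to 87.4% and 22.1% to 63.4%, but not at the 8-cell stage. The genes were measured in the same blastomeres, and the intervals treat sister blastomeres as independent. Overlap or its lack is therefore no test between genes. With every blastomere thinned to 2.34 M fragments, the expected share with at least 1 fragment of Atp1b1 was 50.4% at the 4-cell stage and 27.1% in 8-cell blastomeres, against 54.2% and 30.8% unthinned.

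For 13041 genes listed in both tables and above 1 FPKM in at least 1 blastomere, the mean log2 levels of the stages were set side by side. A difference of at least 1, or 2-fold, is called here, with no test behind it. Lower at the 8-cell stage by this rule were 919 genes, 7.05%, and higher were 620, 4.75%. Of the 5 members, 1 was called lower, Atp1b3, and none was called higher. Only 3.20% of genes had a lower difference than Atp1b3, 8.03% one lower than Aqp11, 8.76% one lower than Aqp9 and 17.3% one lower than Atp1b1, whose difference was -0.56. Aqp3 lay on the other side, with 82.6% of genes below it. The median gene differed by -0.06. Atp1b3 was called under each of the 6 other settings tried. Aqp11 joined it without the gene-poor blastomeres, when 8.23% of genes were called lower, and with medians in place of means, when 10.1% were. Aqp9 joined it without the columns named NA, when 7.93% were, and Aqp9 and Atp1b1 did with a pseudocount of 0.1, when 17.3% were.

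**Figure D3:**
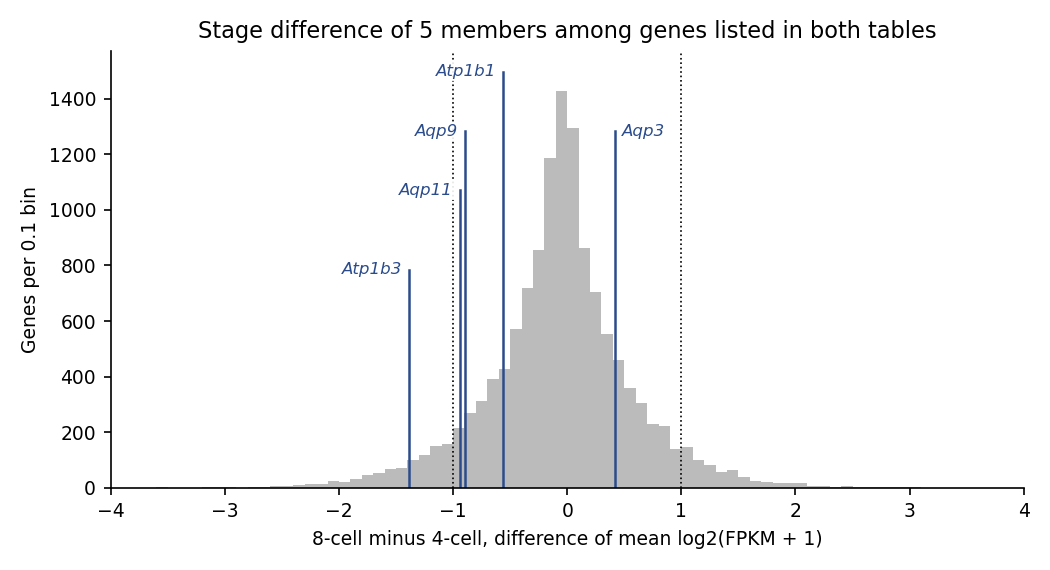
Histogram of the 8-cell minus 4-cell difference of mean log2(FPKM + 1) over 13041 genes in bins of 0.1, with the 5 members listed in both tables as blue lines and 2-fold as dotted lines. Atp1b3 lies at -1.38, Aqp11 at -0.94, Aqp9 at -0.89, Atp1b1 at -0.56 and Aqp3 at 0.42.

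Other genes of the pump were less abundant by median than Atp1b3. Atp1b2, the beta subunit best known from glia, had medians of 3.73 and 0 FPKM and differed by -1.34, past 2-fold. Fxyd4, a small regulator of the pump, had medians of 11.9 and 25.1 FPKM and was expressed in 17 blastomeres of each stage. Of the 15 genes of the list of Na/K-ATPase subunits and FXYD regulators, 8 could be compared, and 2 were lower by 2-fold, Atp1b3 itself and Atp1b2, beside 7.05% of all genes. None was higher, and the median difference was -0.21.

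Of 12 aquaporins, 5 were listed in each table and 4 could be compared, with none past 2-fold and a median difference of -0.60. Aqp7 and Mip, the lens aquaporin, were at 0 in most 4-cell blastomeres, with highest values of 5.12 and 0.334 FPKM. Aqp1, Aqp2, Aqp4, Aqp5 and Aqp6 were listed in neither table. Of 13 sodium/proton exchangers and scaffolds, 7 could be compared and none was past 2-fold, with a median difference of 0.07. In this list Slc9a8, an exchanger of the Golgi, was the only gene expressed in at least 50% of blastomeres, with medians of 1.07 and 1.13 FPKM. Of 17 other genes of epithelial ion transport, 6 could be compared and none was past 2-fold, with a median difference of 0.11. The most abundant were Sgk1, a kinase that raises sodium transport, with medians of 59.7 and 63.4 FPKM, and Slc12a2, the sodium, potassium and chloride cotransporter, with medians of 45.0 and 45.4 FPKM. Nedd4l, a ubiquitin ligase that removes sodium channels from the membrane, had medians of 4.76 and 12.4 FPKM, and Clcn3, a chloride/proton exchanger of vesicles, had 1.17 and 4.07 FPKM. Scnn1a and Scnn1b, subunits of the epithelial sodium channel, and Cftr, a chloride channel, were listed in neither table. Scnn1g, another subunit of that sodium channel, was listed only at the 4-cell stage. It was at 0 in 23 of 24 blastomeres and at most 0.0249 FPKM.

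Of 7 markers of the later trophectoderm, 4 were listed at the 4-cell stage and 6 in the 8-cell table, with summed levels of 0 to 89.5 and 0 to 322 FPKM. Krt8, a keratin of simple epithelia, had medians of 0 and 43.3 FPKM and was expressed in 9 of 24 and 21 of 26 blastomeres. Cdx2, a transcription factor of the trophectoderm, was not listed at the 4-cell stage and was expressed in 4 of 26 8-cell blastomeres. How these markers relate to the pump and channel genes was not tested.

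The mixture of water channels varied from blastomere to blastomere. Of the summed FPKM of Aqp3, Aqp9 and Aqp11, Aqp11 held a median of 47.8% at the 4-cell stage and 29.2% in 8-cell blastomeres, Aqp9 43.8% and 44.5%, and Aqp3 5.83% and 13.8%. Without the gene-poor blastomeres these medians were 49.8% and 29.2% for Aqp11, 38.0% and 54.9% for Aqp9, and 9.67% and 15.5% for Aqp3. Aqp11 held the largest share in 14 of the 24 4-cell blastomeres and Aqp9 in 10, or 13 and 7 of the 20 that were not gene-poor. In the 8-cell table Aqp9 led in 15 of 26, Aqp11 in 6 and Aqp3 in 5, or 15, 4 and 4 of the 23 that were not gene-poor. Aqp3 led in none of the 4-cell blastomeres, where its share reached at most 33.8%. Its highest 8-cell share, 76.9%, was that of the shallow blastomere, and without the gene-poor blastomeres it was 51.5%.

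**Figure D4:**
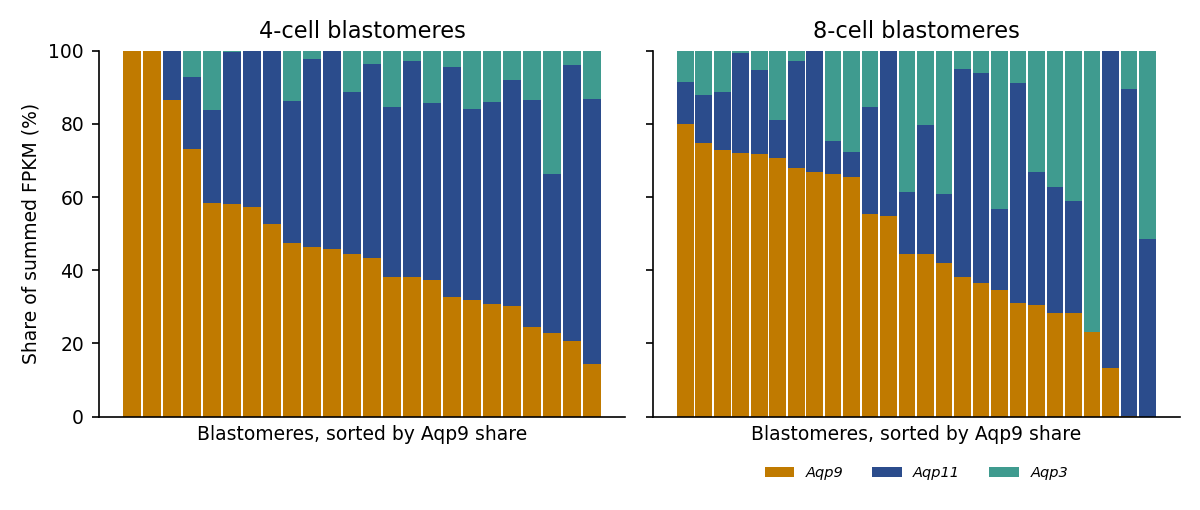
Share of Aqp9 (orange), Aqp11 (blue) and Aqp3 (green) in their summed FPKM, with 1 bar per blastomere, sorted by the Aqp9 share within each stage. Aqp11 leads in 14 of 24 4-cell blastomeres and in 6 of 26 8-cell ones, and Aqp3 leads only among the 8-cell blastomeres, in 5.

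Most blastomeres expressed each of the 4 more widely expressed members. Atp1b3, Aqp3, Aqp9 and Aqp11 were all expressed in 17 of 24 4-cell and 19 of 26 8-cell blastomeres, and no blastomere of either stage lacked all of them. Aqp3 by itself was expressed in 17 of 24 and 22 of 26. No such count was made for other genes, so whether these 4 go together more than others was not tested. Of the 7 4-cell blastomeres that lacked at least 1, 4 were gene-poor. Gene-poor blastomeres have few expressed genes by definition, and the share of all genes at 0 in them was not counted. The 4 gene-poor blastomeres all had 0 FPKM of Aqp3 and of Atp1b1, and 3 of them had at most 0.0783 FPKM of Aqp11, while Atp1b3 stayed at 120 to 470 FPKM. Their Atp1b3 median of 291 FPKM compared with 229 in the other 20. All 20 of these others expressed Aqp9 and Aqp11, and 17 expressed Aqp3. At the 8-cell stage the 3 gene-poor blastomeres all expressed Aqp3, at 4.13 to 8.77 FPKM, and Aqp11 reached its highest 8-cell value, 83.9 FPKM, in one of them.

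**Figure D5:**
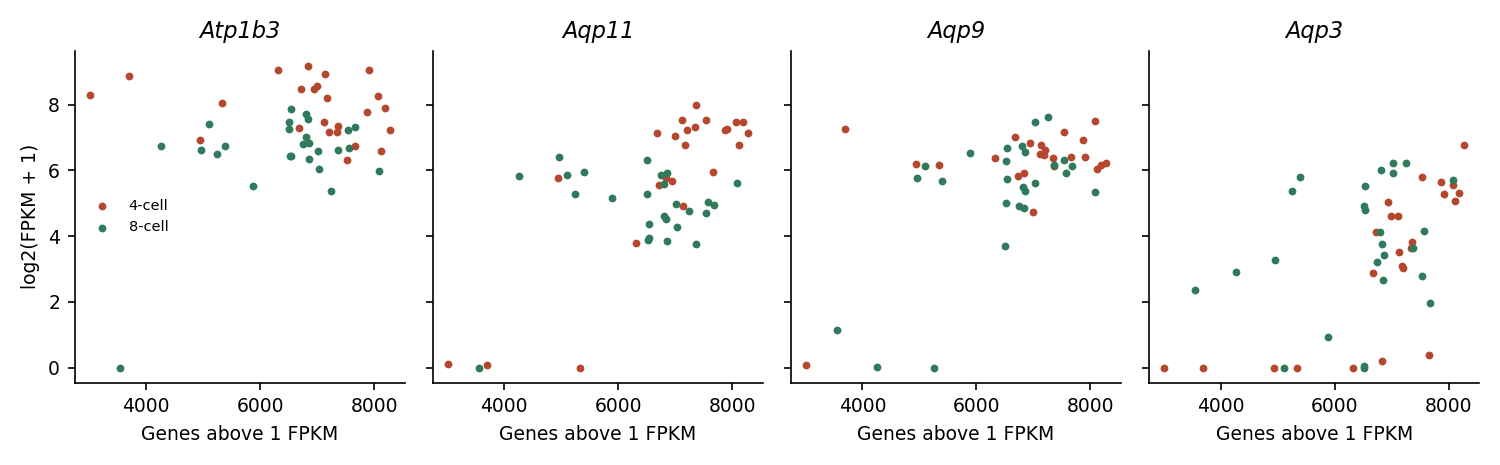
Level of Atp1b3, Aqp11, Aqp9 and Aqp3 as log2(FPKM + 1) against the number of genes above 1 FPKM in the same blastomere, with 24 4-cell blastomeres in red and 26 8-cell blastomeres in green. Among 4-cell blastomeres with few expressed genes, Aqp11 and Aqp3 lie mostly at or near 0 while Atp1b3 stays high.

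Correlations over blastomeres are given as a description, since the points share libraries and the number of expressed genes. At the 4-cell stage, over 24 blastomeres, the Pearson r with the number of expressed genes was 0.85 for Aqp11, 0.75 for Aqp3, 0.54 for Aqp9 and -0.27 for Atp1b3. Over the 20 blastomeres that were not gene-poor, these were 0.57, 0.63, 0.17 and -0.40. Over the 26 8-cell blastomeres they were 0.20, 0.26, 0.65 and 0.47 in the same order, and 0.21 for Aqp3, 0.39 for Aqp9, -0.29 for Aqp11 and -0.09 for Atp1b3 over the 23 that were not gene-poor. Aqp3 and Aqp11 had an r of 0.71, and of 0.60 over the 20 blastomeres left without the gene-poor ones. Atp1b3 and Aqp11 had an r of -0.40, and of -0.54 over those 20. At the 8-cell stage the r of Aqp3 and Aqp11 was -0.10 and that of Atp1b3 and Aqp11 was 0.71, but they were -0.33 and -0.01 over the 23 blastomeres that were not gene-poor.

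The genes most like each member over all 50 blastomeres were sought among 6514 genes, each above 1 FPKM in at least 25 of them, by the Pearson r of log2(FPKM + 1). For Atp1b3 they were Gdap2 (0.83), Nob1 (0.82) and Cdc45 (0.82). These had an r of 0.90 to 0.94 over the 8-cell blastomeres and of -0.10 to 0.23 over the 4-cell ones, and the 8-cell values were 0.42 to 0.67 without the shallow blastomere. For Aqp9 they were Plk1, a mitotic kinase (0.80), Rnpep (0.75) and Thumpd1 (0.73). For Aqp11 they were Eif2b2, a subunit of a translation initiation factor (0.80), Srp14 (0.77) and Alas1 (0.76). For Aqp3 they were Nudt19 (0.69), Prdx3 (0.65) and Dnph1 (0.62). Without the gene-poor blastomeres the likeness was lower. Over the 43 blastomeres that were not gene-poor, r was 0.11 to 0.39 for the genes named for Aqp9, 0.20 to 0.54 for those of Aqp11, 0.60 to 0.65 for those of Atp1b3 and 0.57 to 0.61 for those of Aqp3. Within the 4-cell stage, r was 0.76 to 0.83 for the Aqp9 genes, 0.78 to 0.92 for the Aqp11 genes and 0.63 to 0.82 for the Aqp3 genes. Without the gene-poor blastomeres these ranges were -0.14 to 0.01, 0.40 to 0.52 and 0.33 to 0.65, and that of the Atp1b3 genes was 0.12 to 0.41. Within the 8-cell stage, r was 0.71 to 0.78 for the Aqp9 genes, 0.58 to 0.80 for the Aqp11 genes and 0.49 to 0.66 for the Aqp3 genes. Without the gene-poor blastomeres these were 0.26 to 0.56, -0.31 to 0.28 and 0.59 to 0.76, and that of the Atp1b3 genes was 0.48 to 0.67. Without the shallow blastomere alone they were 0.64 to 0.73, -0.33 to 0.39 and 0.50 to 0.68. Atp1b1 and Slc9a3 were expressed in too few blastomeres for this search.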

How the data were processed

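Single blastomeres were sequenced as Smart-seq2 libraries. Per the submitters' processing notes and the methods, the authors aligned reads with STAR 2.5.1b to mm10, counted uniquely aligned reads on Refseq genes with HTSeq, and deposited gene tables of FPKM values for each stage. The gene lengths and totals behind FPKM are not given in the sources used here. The stage of each table was taken from the paper, whose gene totals equal the rows. None of the 50 columns was mapped to a sample, since no name matches one, so the planned tests over embryos and lineages were not run. The members and gene lists were chosen with earlier results of these data known. The repeat tables were not used.

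Identifiers were matched to RefSeq of GRCm38.p6, 15200 of 15218 and 15320 of 15342. Fragments per blastomere were estimated from the lowest 0.3 of the values of 8466 and 8589 genes that have 1 curated transcript. Of the values of these genes from 0.5 to 10 fragments, at least 90.4% per blastomere were whole within 0.1. For 5 members this held for 18 of 19 values from 0.5 to 100 fragments. No columns were identical. The step was also run on simulated data, and no outcome of that run is given here. Reads carry no molecular identifiers, so intervals and floors (3 fragments) cover counting error only. Levels were compared as log2(FPKM + 1), which understates changes of low genes. Named genes are all members, the genes of the fixed lists expressed in at least 50% of the blastomeres of a stage, up to 6 a list, and the 3 genes most like each widely expressed member. Others named, the unlisted and markers among them, were chosen after their values were seen. Some genes of the lists are not reported here. Python 3.11.15, numpy 2.4.6, pandas 2.3.3 and scipy 1.17.1 were used.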

Additional observations from a re-analysis of the deposited data

How the results depend on the processing

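No paired analysis was possible because no column names its embryo or lineage, and for the same reason no embryo was left out in turn. With no test, a difference was taken as moved when it changed by more than 1 SD between blastomeres, a share when it left its interval, and a count past 1.5 times. The SD between blastomeres is wide, so staying within it says little of stability. The stage difference of Aqp11 was -1.90 as a difference of medians and -1.70 without gene-poor blastomeres, and that of Aqp3 turned to -0.04 and -0.13 in the same order. With 1 blastomere left out in turn, they ran from -0.71 to -0.40 for Atp1b1, -1.45 to -1.12 for Atp1b3, 0.28 to 0.57 for Aqp3, -1.16 to -0.68 for Aqp9 and -1.19 to -0.74 for Aqp11. With a pseudocount of 0.1, Atp1b1 and Aqp9 passed 2-fold too, at -1.24 and -1.06, while the genes called lower rose from 919 to 2255 and those called higher from 620 to 1352. Scaling each blastomere to 1 common sum gave 1349 and 919 and a median gene of -0.07. Without gene-poor blastomeres, the share above 1 FPKM was 100% for Atp1b3 and Aqp11 at the 8-cell stage and for Aqp9 and Aqp11 at the 4-cell stage. It was also 100% for Atp1b3 and Aqp11 without the 8-cell blastomere with the fewest fragments, an alternative chosen after seeing the data. So were the water channel shares and the correlations with the most alike genes without gene-poor blastomeres, and the counts over all genes without gene-poor blastomeres, without the columns named NA, with medians and with 1 common sum. With a threshold of 0, Aqp9 was at 100% at the 4-cell stage, and with a threshold of 5 FPKM Slc9a3 was at 0%. The 8-cell log2 ratio of Atp1b1 to Atp1b3 was -4.44 where both were expressed, by its construction over fewer blastomeres. For the remaining changes the cause was not tested. Depth limits a value of 0 most in the 8-cell blastomere with 2.34 M fragments.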
